A study of Mus musculus with 12 samples.

Results

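The 9 genes described here were Nlrp6 and 8 other genes of inflammasome signalling: the sensors Nlrp3 and Aim2, the adaptor Pycard, the caspases Casp1 and Casp4, the cytokine gene Il18, the gene of its soluble inhibitor, Il18bp, and the pore-forming gasdermin Gsdmd. They were matched by symbol in the platform annotation, where 22180 genes had a probe set with a single symbol, and all 9 were among the 16635 genes kept after a filter on dim genes. The set was selected on the levels of Nlrp6 in the 4 groups of these arrays, the other genes being chosen by their place in the same pathway, so Nlrp6 is given as a description with no test. The levels and differences of the other 8 genes come from the same arrays, and their tests were adjusted over all 16635 genes.

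Expression was measured on 12 arrays in 4 groups of 3: stroma from Stat3dm mice, stroma from Stat3wt mice, tumor from Stat3dm mice and tumor from Stat3wt mice. Stat3dm mice carried a conditional deletion of Stat3, a transcription factor activated by cytokine receptors, in myeloid cells, and Stat3wt mice were the wild type. All animals had received azoxymethane, a carcinogen, and dextran sulfate, which inflames the colon (AOM/DSS), so every group came from an animal with colitis-associated colorectal tumors and none from an untreated colon. Tumor and stroma were cut apart by laser from fixed, paraffin-embedded tissue, and each sample pooled 2 tumors of 1 mouse. The sources used here do not give the driver of the deletion, which cells escape it, the strain, sex or age of the animals, or whether a tumor and a stroma sample with the same number came from the same mouse. Values are log2 signals, on which a difference of 1 is a 2-fold change, and levels are compared only within a gene.

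An inflammasome is a protein complex in which a cytosolic sensor, such as a member of the NLR family, binds the adaptor ASC (the product of Pycard) and thereby activates caspase-1. Caspase-1 cleaves the precursors of interleukin-1 beta and interleukin-18 into their active forms and cuts gasdermin D, whose fragment opens pores in the plasma membrane. In the mouse colon, Nlrp6 is known mainly from epithelial cells, including goblet cells, and mice without Nlrp6, Casp1 or Il18 are known to develop more severe colitis and colitis-associated tumors under AOM/DSS.

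The promoters of Nlrp6 and Il18bp are shown because these were the genes of the set whose 6 Stat3dm arrays lay above all 6 Stat3wt arrays. Both sequences are the 250 bases before the gene start, 5′ to 3′ on the gene's strand, from RefSeq on GRCm38.p6, at chr7:140920652-140920901 on the plus strand for Nlrp6 and at chr7:102018233-102018482 on the minus strand for Il18bp. Capitals mark matches to any of 3 motifs searched on both strands.
Nlrp6: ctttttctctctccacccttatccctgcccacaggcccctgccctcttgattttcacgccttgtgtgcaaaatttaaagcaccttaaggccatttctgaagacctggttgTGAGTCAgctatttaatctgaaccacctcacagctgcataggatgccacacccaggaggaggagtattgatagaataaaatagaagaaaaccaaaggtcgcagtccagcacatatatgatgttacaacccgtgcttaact
Il18bp: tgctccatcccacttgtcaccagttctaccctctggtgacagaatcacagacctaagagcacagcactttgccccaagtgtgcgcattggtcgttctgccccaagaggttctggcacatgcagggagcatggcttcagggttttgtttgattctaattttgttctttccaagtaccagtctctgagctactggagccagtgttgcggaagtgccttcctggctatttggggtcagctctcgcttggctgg
The motifs were the STAT-type palindrome TTCNNNGAA, the interferon-response element, GAAA followed after 2 bases of any kind by GAAA, and the AP-1 element TGANTCA. Windows were given for 8 of the 9 genes, 10 windows in all. The capitals in Nlrp6 are an AP-1 match that starts at position -140, counted from the gene start, and it was the 1 match among the 10 windows. The STAT-type and interferon-type letters were found in 0 of the 10 windows. Among all 32851 windows of this length, 7.02% held the STAT-type letters, 2.98% the interferon-type letters and 6.75% the AP-1 letters. A match or its lack describes the letters of these windows only.

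Nlrp6, the sensor the set was named for, was higher in Stat3dm mice in both tissues. In stroma it was at 6.32, 5.23 and 5.37 in replicates 1, 2 and 3 of Stat3dm and at 4.63, 4.69 and 4.81 in those of Stat3wt. In tumor it was at 6.18, 5.96 and 6.98 in Stat3dm and at 4.68, 4.66 and 5.05 in Stat3wt. Every Stat3dm array was thus above every Stat3wt array, within each tissue and across both. The means were 5.64 ± 0.59 in Stat3dm stroma and 4.71 ± 0.09 in Stat3wt stroma (SD, n = 3 each), a difference of 0.93 or 1.91-fold, which was 0.59 without Stat3dm stroma 1. In tumor they were 6.37 ± 0.54 in Stat3dm and 4.80 ± 0.22 in Stat3wt (SD, n = 3 each), a difference of 1.57 or 2.98-fold. Averaged over both tissues, the difference was 1.25 or 2.39-fold, and it lay between 1.08 and 1.36 when any 1 array was left out.

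In the order of group means, Stat3dm tumor stood above Stat3dm stroma and Stat3dm stroma above Stat3wt tumor, each by more than the larger SD of the neighbours. Stat3wt tumor and Stat3wt stroma differed by less than their SD. Stroma minus tumor was -0.73 in Stat3dm mice, 1.66-fold lower in stroma, and -0.09 in Stat3wt mice. The first of these was -0.43 without Stat3dm tumor 3, the array with the highest Nlrp6 level. These arrays measure RNA from mixed cells, so that fewer cells of a type and less RNA per cell cannot be told apart.

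**Figure D1:**
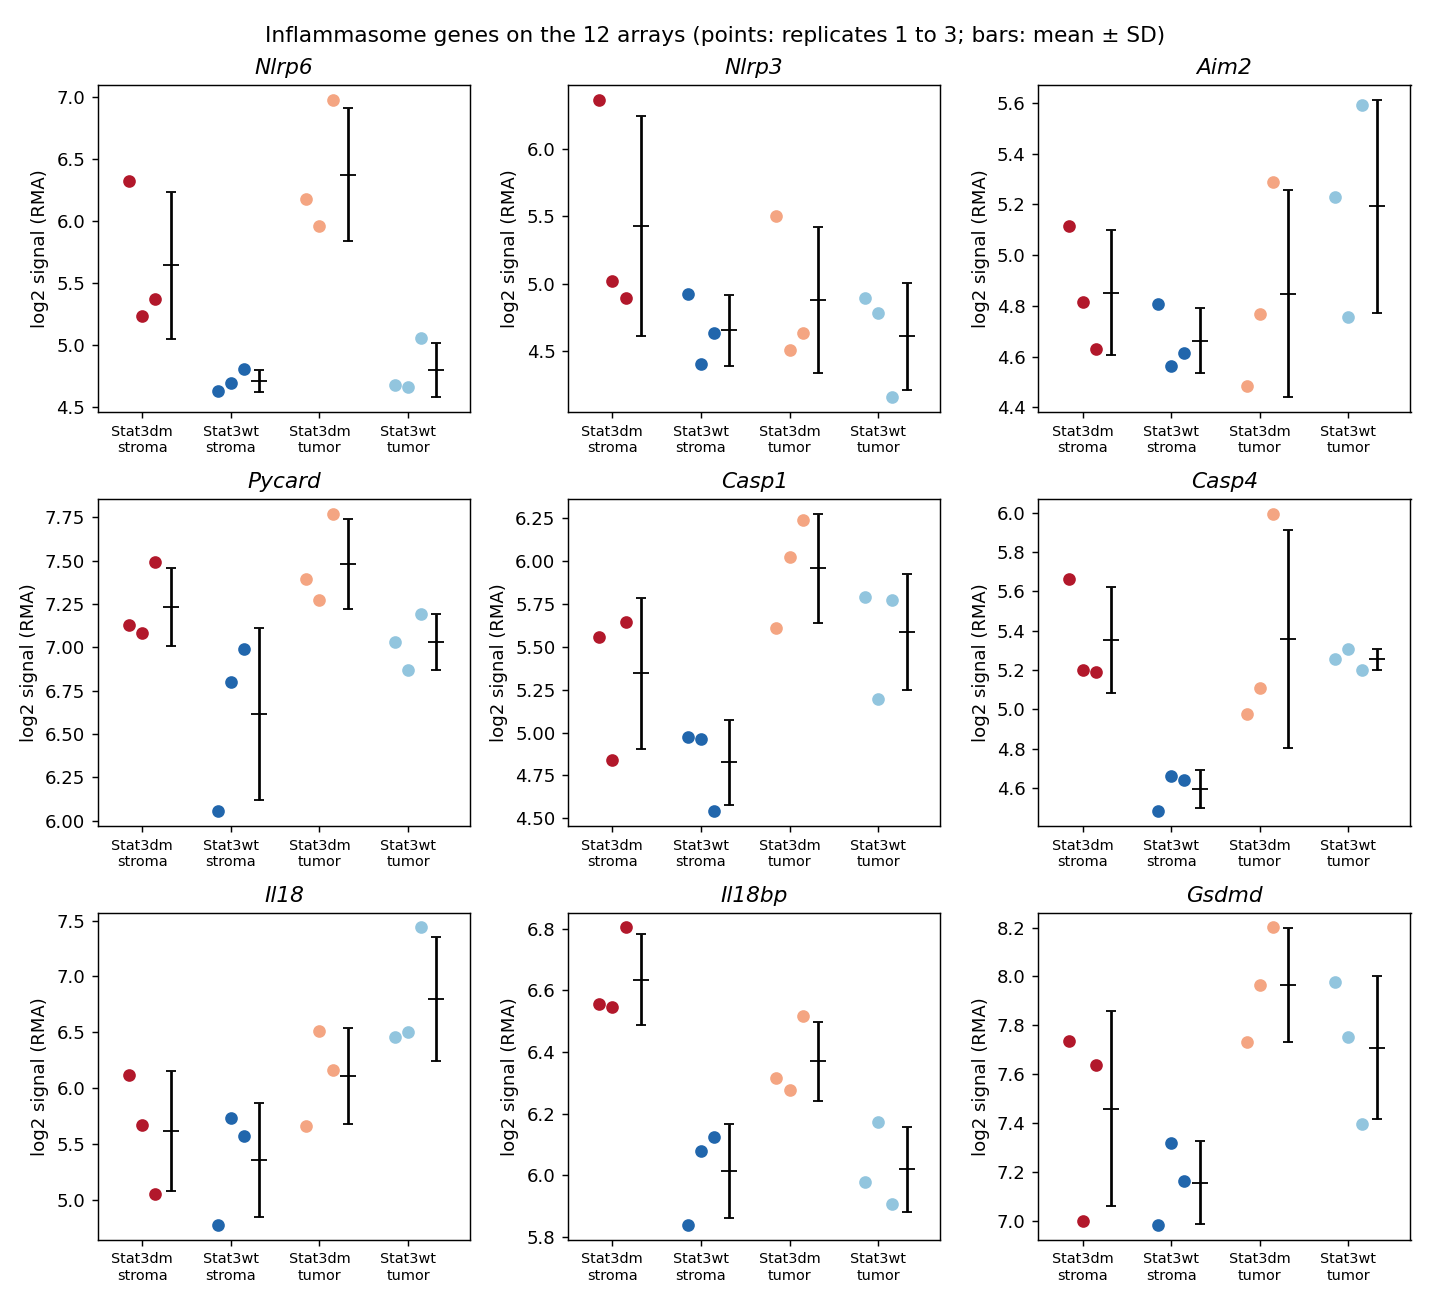
Log2 signal of each of the 9 genes (1 panel a gene) on each array, by group, with points for replicates 1 to 3 and bars for the group mean and SD. For Nlrp6 and Il18bp the Stat3dm arrays sit above all Stat3wt arrays, while for Aim2 and Nlrp3 the groups overlap.

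Of the 9 genes, 9 had a Stat3dm minus Stat3wt difference above 0 in stroma, with a median of 0.62, against a median of -0.02 and 47.2% above 0 over all 16635 genes. The sign of Il18, at 0.25, turned without Stat3wt stroma 1 (-0.0367), so that 8 of the 9 kept theirs when any 1 array was left out. In 4 of the 9, Nlrp6, Pycard, Casp4 and Il18bp, the Stat3dm and Stat3wt stroma arrays did not overlap and Stat3dm was higher, as it was in 5.13% of all genes. In tumor, 7 of the 9 differences were above 0, against 48.7% of all genes, and the median was 0.27. There, 3 genes, Nlrp6, Pycard and Il18bp, had higher Stat3dm arrays with no overlap, against 4.05% of all genes. Over both tissues together, Nlrp6 and Il18bp had no overlap, 2 of the 9, against 0.168% of all genes. Lower Stat3dm arrays with no overlap were found for 0 of the 9 genes in stroma, in tumor or over both, against 5.62%, 5.46% and 0.367% of all genes. Since the set was selected on Nlrp6 in this contrast, nothing is read from these shares.

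None of the 8 genes tested passed an adjusted p of 0.05 in limma for the genotype. In stroma, 0 of 16635 genes passed in either direction (0%), and 3 of the 8 had an unadjusted p under 0.05, as 5.07% of all genes did. In tumor, 3 genes passed, all lower in Stat3dm (0.018%), and 89 passed with the replicate number as a block, without any of the 8. There, 0 of the 8 had an unadjusted p under 0.05, against 6.26% of all genes. Averaged over both tissues, 0.0842% of genes passed as higher and 0.198% as lower in Stat3dm, and 4 of the 8 had an unadjusted p under 0.05, against 8.23% of all genes. The set was therefore described by its values, gene by gene.

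**Figure D2:**
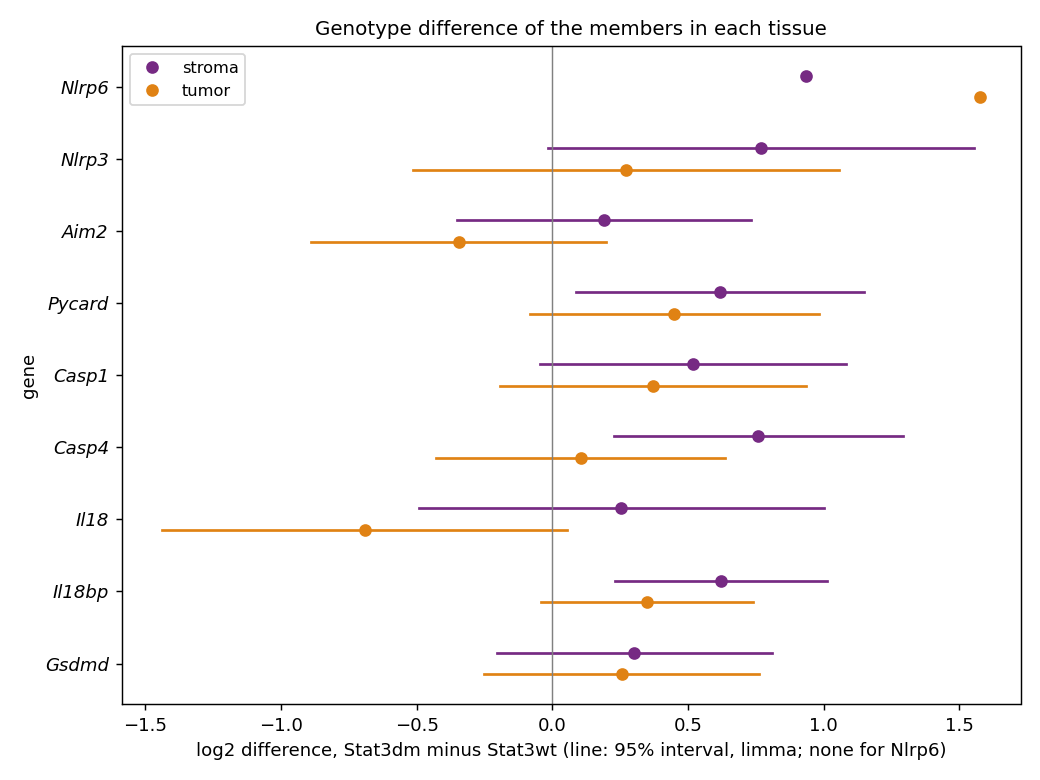
Stat3dm minus Stat3wt log2 difference of each gene in stroma and in tumor, with lines for the 95% interval from limma and none for Nlrp6, which was not tested. All 9 stroma points lie above 0, and in tumor Aim2 and Il18 lie below it.

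The other 2 sensors differed in pattern from Nlrp6. Nlrp3, which responds to ion efflux and membrane damage and is known mainly from myeloid cells, was at 6.36, 5.02 and 4.89 in Stat3dm stroma and at 4.93, 4.40 and 4.64 in Stat3wt stroma. They overlapped in that Stat3wt stroma 1 was above Stat3dm stroma 3, and the Stat3dm stroma SD of 0.81 came mostly from replicate 1. The difference in stroma was 0.77 ± 0.37 (SE; limma, adjusted p = 0.998, 95% interval -0.01 to 1.55), and it was 0.30 without Stat3dm stroma 1. In tumor Nlrp3 averaged 4.88 ± 0.54 in Stat3dm and 4.61 ± 0.40 in Stat3wt (SD, n = 3 each; limma adjusted p = 0.869). No 2 neighbours in the order of its 4 group means differed by more than the larger SD.

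Stat3dm stroma 1 also stood apart in other genes. It had the highest mean of the neutrophil markers, 7.12 against 5.21 to 5.84 on the other 11 arrays, and the highest Nlrp3 level of the 12. Its differentiated colonocyte markers, at a mean of 7.46, were the highest of the 12 arrays as well. The part of these cell markers in the Nlrp3 and Nlrp6 values was not tested.

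Aim2, a sensor of double-stranded DNA in the cytosol, did not separate the genotypes. Its Stat3dm arrays had 5.12, 4.81 and 4.63 in stroma and 4.48, 4.77 and 5.29 in tumor. Its Stat3wt arrays had 4.81, 4.56 and 4.61 in stroma and 5.23, 4.76 and 5.59 in tumor. All 4 groups overlapped with their neighbours in the order of means. The differences, 0.19 ± 0.25 in stroma and -0.34 ± 0.25 in tumor (SE), had limma adjusted p-values of 0.999 and 0.823. The 95% interval in tumor ran from -0.89 to 0.20. Leaving out 1 array moved the tumor difference to between -0.14 (without Stat3wt tumor 3) and -0.57 (without Stat3dm tumor 3), and the stroma difference was 0.06 without Stat3dm stroma 1.

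Pycard, the adaptor that links NLR and AIM2 sensors to caspase-1, was higher on every Stat3dm array than on every Stat3wt array of the same tissue. In stroma it was at 7.13, 7.08 and 7.49 in Stat3dm and at 6.06, 6.80 and 6.99 in Stat3wt. In tumor it was at 7.40, 7.27 and 7.77 in Stat3dm and at 7.03, 6.87 and 7.19 in Stat3wt. Stat3dm stroma 1 and 2 lay below the highest Stat3wt tumor array, so the genotypes overlapped across tissues. The difference averaged over both tissues was 0.53 ± 0.18 (SE), 1.45-fold, with a limma adjusted p of 0.300. In stroma alone it was 0.62 ± 0.25 (SE; limma adjusted p = 0.888) and 0.34 without Stat3wt stroma 1, the array with the lowest level.

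Casp1, the effector protease of the complex, had both stroma means below both tumor means. Its stroma arrays had 5.56, 4.84 and 5.64 in Stat3dm and 4.98, 4.97 and 4.54 in Stat3wt. Its tumor arrays had 5.61, 6.03 and 6.24 in Stat3dm and 5.79, 5.20 and 5.77 in Stat3wt. Stat3dm was above Stat3wt by more than the larger SD in each tissue, although single arrays overlapped in both. The genotype difference averaged 0.44 ± 0.19 (SE; limma adjusted p = 0.516).

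Casp4, which encodes mouse caspase-11, the caspase that binds bacterial lipopolysaccharide directly and cuts gasdermin D, was at 5.66, 5.20 and 5.19 in Stat3dm stroma and at 4.48, 4.66 and 4.64 in Stat3wt stroma. The lowest Stat3dm array was thus above the highest Stat3wt array, with a difference of 0.76 ± 0.25 (SE) or 1.69-fold, a 95% interval of 0.23 to 1.29 and a limma adjusted p of 0.666. In tumor, where Stat3dm had 4.97, 5.11 and 5.996 and Stat3wt 5.25, 5.30 and 5.20, the difference was 0.11 ± 0.25 (SE; limma adjusted p = 0.923). The difference between these 2 differences was 0.65 ± 0.35 (SE) and did not pass either (limma interaction, adjusted p = 0.995).

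Il18bp, the secreted protein that binds interleukin-18 and keeps it from its receptor, had SDs of 0.13 to 0.15 in the 4 groups and higher values on all Stat3dm arrays. Its stroma arrays had 6.55, 6.55 and 6.80 in Stat3dm and 5.84, 6.08 and 6.12 in Stat3wt. Its tumor arrays had 6.32, 6.28 and 6.52 in Stat3dm and 5.98, 6.17 and 5.91 in Stat3wt. The lowest of the 6 Stat3dm values was above the highest of the 6 Stat3wt values. Averaged over both tissues, the difference was 0.49 ± 0.13 (SE) or 1.40-fold, with a 95% interval of 0.21 to 0.76 and a limma adjusted p of 0.150. It was 0.62 ± 0.18 in stroma (SE; limma adjusted p = 0.557) and 0.35 ± 0.18 in tumor (SE; limma adjusted p = 0.823).

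Il18, the cytokine that Il18bp holds in check, did not follow Il18bp. In stroma it was at 6.12, 5.67 and 5.05 in Stat3dm and at 4.78, 5.73 and 5.57 in Stat3wt. In tumor it was at 5.66, 6.51 and 6.16 in Stat3dm and at 6.46, 6.51 and 7.44 in Stat3wt. The genotypes overlapped in both tissues, with a difference of 0.25 ± 0.35 in stroma (SE; limma adjusted p = 0.999) and of -0.69 ± 0.35 in tumor (SE; limma adjusted p = 0.822), which was -0.37 without Stat3wt tumor 3. The stroma difference was 0.0013 without Stat3dm stroma 1 and turned to -0.0367 without Stat3wt stroma 1 and to -0.0499 with array weights. The stroma minus the tumor difference was 0.95 ± 0.49 (SE; limma interaction, 95% interval -0.11 to 2.00, adjusted p = 0.995) and 0.0787 with array weights.

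Gsdmd, whose cleaved product forms the membrane pore of pyroptosis, was at 7.74, 7.002 and 7.64 in Stat3dm stroma and at 6.98, 7.32 and 7.17 in Stat3wt stroma. In tumor it was at 7.73, 7.96 and 8.20 in Stat3dm and at 7.98, 7.75 and 7.40 in Stat3wt. The genotypes overlapped in both tissues, and the differences of 0.30 ± 0.24 in stroma and 0.26 ± 0.24 in tumor (SE) had limma adjusted p-values of 0.999 and 0.823. Without 1 array the stroma difference ranged between 0.16 (without Stat3dm stroma 1) and 0.53 (without Stat3dm stroma 2), and the tumor difference between 0.10 (without Stat3wt tumor 3) and 0.39 (without Stat3wt tumor 1). Gsdmd was the only gene of the 9 with 2 single-symbol probe sets, and they disagreed. The other probe set, chosen for display after its values were seen, had 7.64, 6.79 and 7.03 in Stat3dm stroma and 6.28, 6.26 and 6.19 in Stat3wt stroma, with no overlap and a difference of 0.91 ± 0.25 (SE; limma adjusted p = 0.536). In tumor it averaged 7.35 in each genotype. The signal of the Gsdmd transcript in stroma thus depended on the probe set read.

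Between tissues, most genes of the set were lower in stroma than in tumor. In Stat3wt mice 8 of the 9 stroma minus tumor differences were below 0, with a median of -0.53, and the arrays of Casp1, Casp4, Il18 and Gsdmd, 4 of the 9, did not overlap, against 15% of all genes that were lower in stroma in this way. None of the 9 was higher in Stat3wt stroma with no overlap, against 8.88% of all genes. In Stat3dm mice 6 of the 9 were below 0, the median was -0.25, and none was lower with no overlap (7.16% of all genes), while Il18bp was higher with no overlap (1 of 9, against 6.57% of all genes). Over both genotypes together, all 9 overlapped between the tissues, while 1.33% of all genes were lower and 0.721% higher in stroma with no overlap. The median over all genes was -0.04 in Stat3wt and -0.03 in Stat3dm.

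The largest tissue difference of the set was that of Il18, an interleukin that intestinal epithelial cells are known to make. In Stat3wt mice its highest stroma array, at 5.73, was below its lowest tumor array, at 6.46, and the means of 5.36 ± 0.51 in stroma and 6.80 ± 0.55 in tumor (SD, n = 3 each) were 2.71-fold apart. The difference was -1.44 ± 0.35 (SE; limma adjusted p = 0.185), and in Stat3dm mice it was -0.49 ± 0.35 (SE; limma adjusted p = 0.735). Over both genotypes Il18 was 1.95-fold lower in stroma, at -0.97 ± 0.25 (SE), and just missed the threshold (limma adjusted p = 0.0529).

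Casp1 was 1.61-fold lower in stroma over both genotypes, at -0.69 ± 0.19 (SE; limma adjusted p = 0.0649), and Gsdmd 1.44-fold lower, at -0.53 ± 0.17 (SE; limma adjusted p = 0.0948). By its other probe set, Gsdmd differed by -0.65 ± 0.18 (SE; limma adjusted p = 0.0686). Of the 8 genes tested, 0 passed in this comparison and 3 had an unadjusted p under 0.05, as 22.3% of all genes did, while 0.848% of all genes passed as higher and 1.71% as lower in stroma. Casp1 and Il18 passed when Stat3wt tumor 2 was left out (limma adjusted p = 0.0423 for Casp1 and 0.0494 for Il18) or when Stat3dm tumor 1 was left out (0.0308 and 0.0272), and Il18 also without Stat3dm stroma 1 (0.0329). The count of all genes that passed was itself 1296 without Stat3dm tumor 1, against 425 over all arrays. With the replicate number, or genotype and number, as a block, Casp1 passed (limma adjusted p = 0.0223 to 0.0265). Il18 passed in the same fits (0.0133 to 0.0182), as did 1648 to 2187 of all genes. Gsdmd passed with the number as a block (0.0492) and with genotype and number as a random block (0.041). Casp4 was lower in stroma with no overlap in Stat3wt, by -0.66 ± 0.25 (SE; limma adjusted p = 0.254), and level with tumor in Stat3dm, at -0.01 ± 0.25 (SE). Within each genotype 0 of the 8 passed in limma, with 4 of the 8 in Stat3wt and 2 of the 8 in Stat3dm at an unadjusted p under 0.05, against 16.7% and 9.68% of all genes. Gsdmd differed by -0.55 in Stat3wt and -0.51 in Stat3dm, and by -1.10 and -0.19 with its other probe set. It was among those counted in Stat3dm, at an unadjusted limma p of 0.0499, which was 0.465 with the other probe set. In Stat3dm, 86 genes passed with the replicate number as a block and 0 of the 8 were among them. All 12 epithelial markers, from Epcam to Lgals4, were lower in stroma over both genotypes, by a median of -0.99, and 5 of them passed. The part of the epithelial share in the tissue differences of Il18, Casp1 and Gsdmd was not tested.

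**Figure D3:**
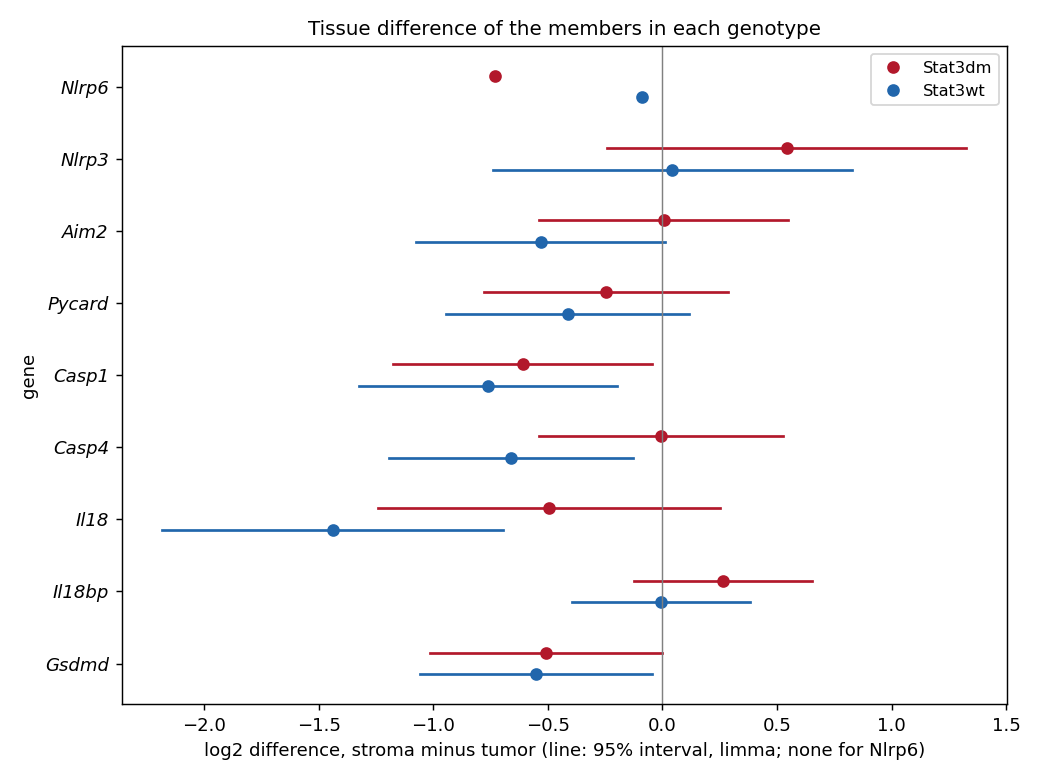
Stroma minus tumor log2 difference of each gene in Stat3dm and in Stat3wt, with lines for the 95% interval from limma and none for Nlrp6. Il18 in Stat3wt lies farthest below 0, at -1.44, and Casp4 lies near 0 in Stat3dm and below it in Stat3wt.

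Of the 36 pairs of genes in the set, 31 had a Pearson correlation above 0 across the 12 arrays, 16 were over 0.5 and the median was 0.45. As deviations from the group means, the median was 0.32. The share among other pairs of genes was not computed, so nothing is read from these counts. The pair most alike was Casp1 and Gsdmd, the protease and its substrate, at r = 0.85 over the 12 arrays and 0.59 within groups. Gsdmd was read here by 1 of its 2 probe sets, which disagreed. The least alike pair was Nlrp3 and Il18 at r = -0.27. With Nlrp6, r was 0.72 for Pycard, 0.70 for Casp4, 0.65 for Casp1, 0.61 for Il18bp and 0.60 for Gsdmd over the 12 arrays. It was 0.40 for Nlrp3, 0.18 for Aim2 and 0.10 for Il18. Without the 2 arrays farthest from the median Nlrp6 level, r was 0.67 for Pycard, 0.52 for Casp1, 0.51 for Il18bp, 0.39 for Gsdmd and 0.25 for Casp4. Within groups, as deviations from the group means, it was 0.83 for Casp4, 0.71 for Aim2, 0.33 for Pycard and 0.11 for Il18bp, and between 0.35 and 0.45 for the other 4. By Pearson's r over the 12 arrays, Pycard ranked 201 and Casp4 255 among the 16634 other genes, so many genes outside the set followed Nlrp6 more closely. These are descriptions over arrays that share groups, spread and possibly animals.

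The 6 genes most like Nlrp6 by Pearson's r over the 12 arrays were St3gal4, Aqp4, Cyp2d10, Slc1a1, Slc5a8 and Tmem107. St3gal4, a sialyltransferase, had r = 0.94 (Spearman's rank correlation 0.92), and Aqp4, a water channel, r = 0.93 (rank correlation 0.89). Cyp2d10, a cytochrome P450, had r = 0.90 (rank correlation 0.86), and Slc1a1, a glutamate transporter, r = 0.90 (rank correlation 0.76). Cyp2d10 averaged 3.44 in Stat3wt stroma and 3.57 in Stat3wt tumor, below the filter cut of 3.65. It averaged 3.93 in Stat3dm stroma and 4.51 in Stat3dm tumor, so it passed the filter through its Stat3dm arrays. Slc5a8, a transporter of butyrate and other monocarboxylates, had r = 0.89 (rank correlation 0.74), and Tmem107, a protein of the ciliary transition zone, r = 0.89 (rank correlation 0.61). As an example, Aqp4 averaged 7.07 ± 1.21 in Stat3dm stroma, 4.99 ± 0.06 in Stat3wt stroma, 8.005 ± 0.30 in Stat3dm tumor and 5.84 ± 0.20 in Stat3wt tumor (SD, n = 3 each). It shared the pattern of Nlrp6 only in part. In Stat3wt mice its stroma was lower than its tumor by -0.85 with no overlap, against -0.09 with overlap for Nlrp6. The genotypes also overlapped across tissues for Aqp4. Among the genes that ran most against it were Mmp11, a matrix metalloprotease, at r = -0.86 (rank correlation -0.71), and Cxxc5, a zinc-finger protein, at r = -0.84 (rank correlation -0.90).

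Markers of differentiated colonocytes, the absorptive surface cells of the colon, and of goblet cells, which secrete mucus, moved with Nlrp6. The colonocyte markers are given first. The mean of their 10 genes lay between 5.52 and 7.46 in Stat3dm stroma and between 5.05 and 5.35 in Stat3wt stroma. In tumor it lay between 6.27 and 6.48 in Stat3dm and between 5.47 and 5.91 in Stat3wt. Averaged over both tissues, 9 of the 10 markers were above 0 for Stat3dm minus Stat3wt, with a median of 0.86. Over all genes, 47.4% were above 0 and 0.0842% passed as higher. Of the 10 markers, 2 passed. These were Car4, a carbonic anhydrase, at 2.58 ± 0.40 (SE; limma adjusted p = 0.0184), and Slc26a3, the chloride-bicarbonate exchanger of the surface epithelium, at 1.84 ± 0.33 (SE; limma adjusted p = 0.0364). The call of Slc26a3 held without Stat3wt stroma 1, Stat3dm stroma 1 or Stat3dm stroma 3 and ended without any of the other 9 arrays (adjusted p up to 0.127), while that of Car4 held without any 1 array. Without the 2 arrays of widest spread and with genotype and number as a random block, both calls ended (adjusted p up to 0.0818 for Car4 and 0.133 for Slc26a3), and that of Slc26a3 also with median centring.

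Over the 12 arrays the colonocyte mean and Nlrp6 had Pearson's r = 0.78 and a Spearman rank correlation of 0.80, and r was 0.80 without the 2 arrays farthest from the median Nlrp6 level. Within the groups, the order was less close in both tissues. Stat3dm stroma 1 had the highest of both in its group. Stat3dm stroma 2 had a marker mean of 6.17 and a lower Nlrp6 level than replicate 3, whose marker mean was 5.52. In both tumor groups replicate 3 had the highest Nlrp6 level and replicate 1 the highest marker mean. In Stat3wt stroma replicate 1 had the highest marker mean, at 5.35, and the lowest Nlrp6 level, at 4.63. The goblet cell mean had r = 0.74 and a rank correlation of 0.73 with Nlrp6, and r was 0.48 for the neutrophil mean and 0.47 for the general epithelial mean. As deviations from the group means, r with Nlrp6 was 0.61 for the colonocyte mean and 0.74 for the goblet cell mean. In the same way it was 0.68 for the general epithelial mean and 0.54 for the neutrophil mean. Other lists ran against Nlrp6 within groups, at r = -0.90 for the B cell mean and -0.68 for the T cell mean. It was -0.42 for the endothelial mean, -0.30 for the fibroblast mean and 0.07 for the smooth muscle mean. Goblet cell markers were above 0 in 9 of 9 genes with a median of 0.69 between genotypes, and 0 of them passed in limma, with 7 at an unadjusted p under 0.05. Over all genes, 47.4% were above 0 and 8.23% had an unadjusted p under 0.05. The general epithelial markers were above 0 in 9 of 12, with a median of 0.26 (0 passed in limma, 3 at an unadjusted p under 0.05). Their mean was 7.17 to 8.58 in Stat3dm stroma and 7.48 to 7.91 in Stat3wt stroma, against 8.52 to 9.18 in Stat3dm tumor and 8.36 to 9.07 in Stat3wt tumor. The part of colonocyte or goblet cell abundance in the Nlrp6 difference was not tested.

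Macrophage and monocyte markers did not move with Nlrp6 over the 12 arrays, with r = -0.09, and r was 0.31 as deviations from the group means. Their mean was 5.67 to 5.99 in Stat3dm stroma, 5.10 to 6.35 in Stat3wt stroma, 4.95 to 5.26 in Stat3dm tumor and 5.07 to 5.58 in Stat3wt tumor. Of 10 tested markers, 9 had a Stat3dm minus Stat3wt difference above 0 in stroma (median 0.34) and 2 in tumor (median -0.26), with 0 passed in limma in each (1 in stroma and 0 in tumor at an unadjusted p under 0.05). Over all genes, 47.2% were above 0 and 5.07% had an unadjusted p under 0.05 in stroma, and 48.7% and 6.26% in tumor. The Stat3 transcript itself, deleted in myeloid cells only, averaged 7.36 ± 0.04 in Stat3dm stroma, 7.35 ± 0.65 in Stat3wt stroma, 7.44 ± 0.47 in Stat3dm tumor and 7.71 ± 0.44 in Stat3wt tumor (SD, n = 3 each).

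**Figure D4:**
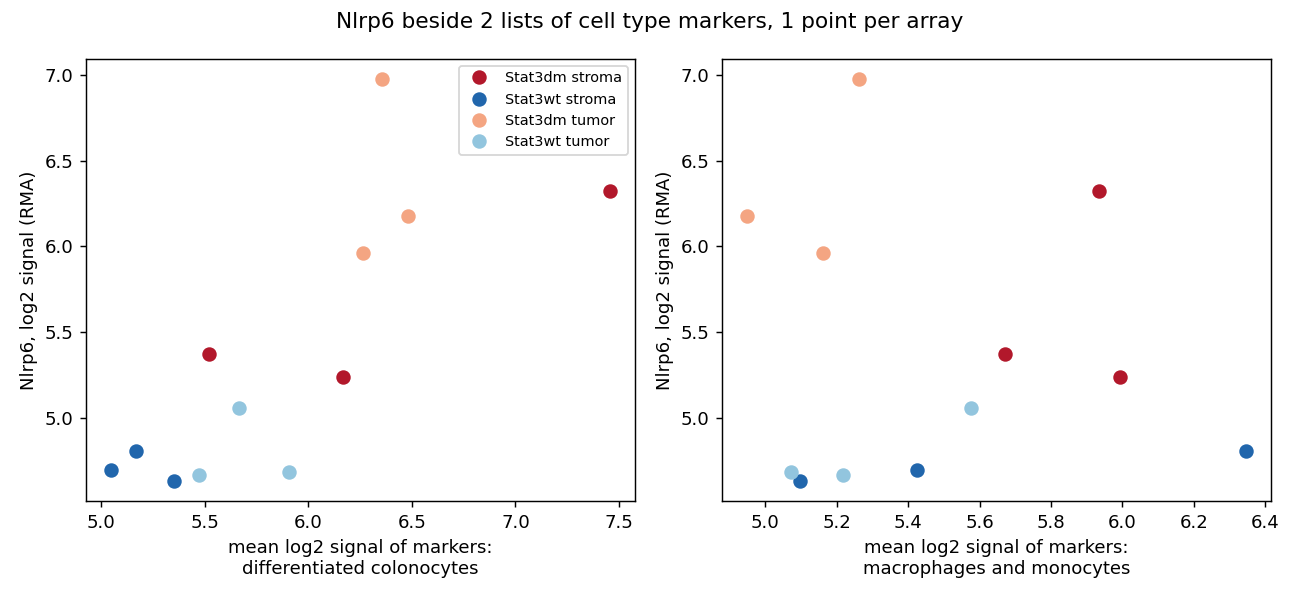
Nlrp6 log2 signal against the mean log2 signal of the differentiated colonocyte markers and of the macrophage and monocyte markers, 1 point an array, coloured by group. Nlrp6 runs with the colonocyte mean (r = 0.78) and not with the macrophage mean (r = -0.09).

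The genes on either side of Nlrp6 on its chromosome, picked after their values were seen, had smaller differences. On GRCm38.p6 the nearest tested protein-coding genes are Psmd13, Sirt3 and Cox8b before it and Pgghg, Ifitm5 and Ifitm2 after it. Averaged over both tissues, Stat3dm minus Stat3wt was 0.26 for Sirt3, a mitochondrial deacetylase (limma adjusted p = 0.703), and -0.56 for Ifitm2, an interferon-induced membrane protein (limma adjusted p = 0.432). The other 4 lay between -0.03 and 0.03, against 1.25 for Nlrp6. In stroma alone Sirt3 differed by 0.47 (limma adjusted p = 0.931) and Ifitm2 by -0.57 (limma adjusted p = 0.999), each with no overlap. Of all genes, 5.13% were higher and 5.62% lower in Stat3dm stroma in this way. The stroma difference of Nlrp6 was 0.93, and 0.59 without Stat3dm stroma 1.

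Beyond the set, 8 lists of genes from the same pathway, written from general knowledge, held 71 genes, of which 62 had a probe set and 50 were tested. In stroma 41 of the 50 had a Stat3dm minus Stat3wt difference above 0 (median 0.28), in tumor 31 (median 0.11) and averaged over both tissues 38 (median 0.19). The medians over all genes were -0.02 in stroma and -0.01 in tumor. The shares of all genes above 0 were 47.2% in stroma, 48.7% in tumor and 47.4% averaged over both tissues. For the average, 3 of the 50 passed, all higher in Stat3dm, as 0.0842% of all genes did and 0.198% did as lower, and within each tissue 0 passed in limma. For stroma minus tumor over both genotypes, 2 of the 50 passed, both higher in stroma, as 0.848% of all genes did.

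Of the genes that regulate the sensors, 13 of 14 tested were above 0 in stroma (median 0.35), against 47.2% of all genes. Gm12250, listed under its other name Irgb10, is an interferon-induced GTPase known to break open bacteria inside cells and expose their ligands to the sensors. It averaged 5.54 ± 0.38 in Stat3dm stroma, 4.41 ± 0.39 in Stat3wt stroma, 5.46 ± 0.26 in Stat3dm tumor and 4.67 ± 0.32 in Stat3wt tumor (SD, n = 3 each). Every Stat3dm array was above every Stat3wt array, and the averaged difference of 0.96 ± 0.19 (SE), 1.95-fold, passed (limma adjusted p = 0.0462). The call held only without Stat3dm stroma 2 (adjusted p = 0.0382) and ended when any of the other 11 arrays was left out, at adjusted p-values up to 0.152 and differences of 0.85 to 1.07. It also ended with median centring, without the 2 arrays of widest spread and with genotype and number as a random block (up to 0.148).

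Gbp5, a guanylate-binding protein that promotes inflammasome assembly, averaged 5.86 ± 0.46 in Stat3dm stroma and 4.69 ± 0.06 in Stat3wt stroma (SD, n = 3 each), 2.25-fold apart (limma adjusted p = 0.329). Irf1, a transcription factor of interferon responses, was at 7.24 ± 0.34 in Stat3dm stroma and 6.34 ± 0.17 in Stat3wt stroma (SD, n = 3 each; limma adjusted p = 0.420). Irf8, a transcription factor of myeloid cells, differed by 0.70 ± 0.22 in tumor (SE; limma adjusted p = 0.504). For the averaged genotype difference, Gbp5 passed in 4 of 9 settings other than leaving out 1 array, and Irf1 and Irf8 in 0. In those settings the count of all genes that passed ran from 13 to 430. All 3 were higher in Stat3dm in their means and none passed in the fit as reported. T and B cell markers moved the same way: 7 of 7 tested T cell markers had a difference above 0 in stroma (median 0.50) and in tumor (median 0.41), and 4 of 4 B cell markers in stroma (median 1.06) and in tumor (median 0.35), with 0 passed in limma. Over all genes, 47.2% were above 0 in stroma and 48.7% in tumor, and 5.07% and 6.26% had an unadjusted p under 0.05. At that level there were 3 T cell markers in each tissue, and 3 B cell markers in stroma and 0 in tumor. Their mean levels were 5.21 to 5.93 in Stat3dm stroma and 4.99 to 5.23 in Stat3wt stroma for T cells, and 4.91 to 6.16 in Stat3dm stroma and 4.55 to 4.65 in Stat3wt stroma for B cells. Their part in these values and in those of the interleukin-18 receptor was not tested.

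Among the other sensors, 9 of 12 tested were above 0 for the averaged genotype difference, with a median of 0.13, and 0 passed in limma (2 at an unadjusted p under 0.05). Of all genes, 47.4% were above 0 and 8.23% had an unadjusted p under 0.05. Naip5, the mouse receptor of bacterial flagellin, was at 6.44 ± 0.51 in Stat3dm stroma and 5.59 ± 0.23 in Stat3wt stroma (SD, n = 3 each), with no overlap and a limma adjusted p of 0.772. Nlrc4, the partner that NAIP receptors activate, differed by 0.20 ± 0.30 in stroma and -0.37 ± 0.30 in tumor (SE). Naip2, the receptor of a bacterial secretion-system rod protein, was lower in stroma than in tumor over both genotypes by -0.81 ± 0.24 (SE; limma adjusted p = 0.0764). It passed without Stat3wt tumor 2 (limma adjusted p = 0.033) and in 4 of 10 settings other than leaving out 1 array. Mefv, which encodes the sensor pyrin, ran the other way, at 0.35 ± 0.15 (SE; limma adjusted p = 0.184). Of the other gasdermins and rupture genes, 4 were tested and 0 passed in limma (1 at an unadjusted p under 0.05 for the averaged genotype difference, against 8.23% of all genes). Gsdma was lower in Stat3dm tumor, by -1.01 ± 0.41 (SE; limma adjusted p = 0.733), and -0.61 without Stat3dm tumor 1. Ninj1, which ruptures the plasma membrane after pore formation, was higher in stroma in Stat3dm by 0.64 ± 0.20 (SE; limma adjusted p = 0.300), and passed in 1 of 10 settings other than leaving out 1 array. Casp8 was the only tested gene of the other caspases and differed by -0.18 ± 0.21 between genotypes (SE; limma adjusted p = 0.911).

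The interleukin-1 branch, the other cytokine arm of caspase-1, rested largely on a single array, Stat3dm stroma 1. Of its 8 tested ligand, antagonist and receptor genes, 6 were above 0 in stroma (median 0.81) and 3 in tumor (median -0.17), and 0 passed in limma in either tissue (1 in stroma and 0 in tumor at an unadjusted p under 0.05). Of all genes, 47.2% in stroma and 48.7% in tumor were above 0. An unadjusted p under 0.05 was found for 5.07% and 6.26% of all genes. Il1b, the substrate of caspase-1, was at 10.93, 7.16 and 6.84 in Stat3dm stroma and averaged 7.13 ± 0.77 in Stat3wt stroma (SD, n = 3). Il1f9, the epithelial cytokine listed as Il36g, differed by 1.13 ± 0.36 in stroma (SE; limma adjusted p = 0.648) and by 0.60 without Stat3dm stroma 1. Il1rn, the receptor antagonist, was also highest on that array, at 7.87 against 6.06 and 6.47 on the other Stat3dm stroma arrays. This is the array with the highest neutrophil and colonocyte markers and the highest Nlrp3.

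The receptor of interleukin-18 was followed through its chains. Il18r1, which binds the cytokine, was at 5.27 ± 0.32 in Stat3dm stroma and 4.68 ± 0.13 in Stat3wt stroma (SD, n = 3 each; limma adjusted p = 0.791), the contrast in which the T and B cell markers were all above 0. Il18rap, the accessory chain, was higher in stroma than in tumor in Stat3dm by 0.74 ± 0.21 (SE; limma adjusted p = 0.267) and by 0.19 ± 0.21 in Stat3wt (SE). In Stat3dm it passed in 1 of 10 settings other than leaving out 1 array. The signalling genes Irak1 and Traf6 differed between genotypes by -0.13 ± 0.15 and -0.01 ± 0.15 (SE). Of the 4 tested genes of this list, 2 were above 0 for the averaged genotype difference and 0 passed in limma (1 at an unadjusted p under 0.05). The shares over all genes were 47.4% above 0 and 8.23% at an unadjusted p under 0.05.

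Interleukin-22, whose soluble inhibitor is known in mouse colon to be lowered by interleukin-18, acts on the epithelium through Il22ra1. All 5 tested genes of this arm were above 0 in both tissues, as were 47.2% of all genes in stroma and 48.7% in tumor. The 2 that passed for the averaged genotype difference, against 0.0842% of all genes as higher, were the antimicrobial lectins Reg3b and Reg3g. Reg3b averaged 10.51 ± 0.91 in Stat3dm stroma, 7.01 ± 1.70 in Stat3wt stroma, 11.79 ± 0.41 in Stat3dm tumor and 6.73 ± 2.87 in Stat3wt tumor (SD, n = 3 each), and the averaged difference was 4.29 ± 0.76 (SE), 19.5-fold (limma adjusted p = 0.0307). The Stat3wt spread came from replicate 1, at 8.89 in stroma against 5.60 and 6.53 on the other arrays, and at 10.04 in tumor against 4.91 and 5.23. The difference was 5.11 without Stat3wt tumor 1 and 3.50 with array weights. Reg3g differed by 2.92 ± 0.55 (SE), 7.58-fold (limma adjusted p = 0.0427). The receptor chain Il22ra1 and the soluble inhibitor Il22ra2 each differed by 0.46 (limma adjusted p = 0.658 and 0.588). The tumor arrays of Il22ra2 had 3.49, 3.25 and 2.94 in Stat3wt and 3.37, 3.94 and 3.51 in Stat3dm, mostly below the filter cut of 3.65. Its stroma arrays had 3.65, 3.96 and 3.75 in Stat3wt and 3.56, 4.91 and 4.51 in Stat3dm. Il22ra2 thus passed the filter through its Stat3dm stroma arrays, and nothing is read from its difference. The call of Reg3b ended without any of 8 arrays (adjusted p up to 0.114) and held without Stat3wt tumor 1, Stat3wt stroma 1, Stat3dm tumor 3 or Stat3dm stroma 2. That of Reg3g ended without any of 9 (adjusted p up to 0.142) and held without Stat3wt tumor 1, Stat3wt stroma 1 or Stat3dm stroma 2. Both also ended with median centring, without the 2 arrays of widest spread and with genotype and number as a random block (up to 0.106 for Reg3b and 0.132 for Reg3g).

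The PYHIN family, to which Aim2 belongs, had 2 other tested genes, Ifi205 and Mndal, and both were higher in stroma than in tumor. Ifi205 averaged 6.01 ± 0.67 in Stat3dm stroma, 4.71 ± 0.55 in Stat3dm tumor, 4.95 ± 0.46 in Stat3wt stroma and 3.97 ± 0.17 in Stat3wt tumor (SD, n = 3 each), a difference of 1.13 ± 0.24 over both genotypes (SE; limma adjusted p = 0.0358). Mndal differed by 0.83 ± 0.20 (SE; limma adjusted p = 0.0450). For Aim2 the same difference was -0.26. The tumor arrays of Mndal had 3.27, 3.05 and 3.09 in Stat3wt and 3.95, 3.54 and 2.98 in Stat3dm. Most of these lie below the filter cut of 3.65. Its stroma arrays had 3.88, 3.73 and 3.72 in Stat3wt and 4.35, 5.16 and 4.04 in Stat3dm. Mndal thus passed the filter through its stroma arrays, and nothing is read from its call. The call of Ifi205 held without Stat3wt tumor 2, Stat3wt stroma 2, Stat3dm tumor 1 or Stat3dm stroma 1 and ended without any of the other 8 arrays (adjusted p up to 0.0892). That of Mndal held without Stat3dm tumor 1, Stat3dm stroma 1 or Stat3dm stroma 3 and ended without any of the other 9 (adjusted p up to 0.119). Both ended with median centring, with array spread as a covariate and without the 2 arrays of widest spread (up to 0.107 for Ifi205 and 0.189 for Mndal), and that of Mndal also with no filter (0.0507). Genes of the PYHIN family are near-identical in part, so probes of 1 member may read another.

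**Figure D5:**
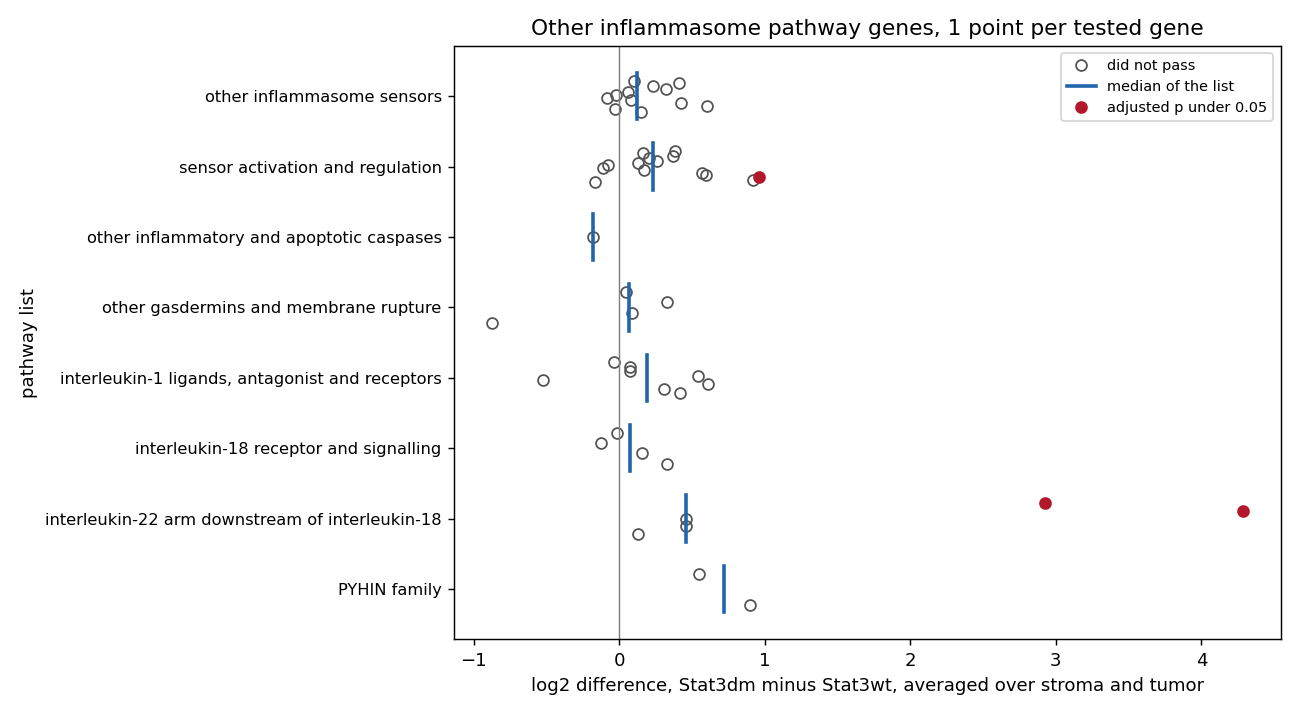
Stat3dm minus Stat3wt log2 difference of every tested gene of the 8 pathway lists, averaged over both tissues, 1 circle a gene, with a bar at the list median and filled circles for the genes that passed. The 3 filled circles are Gm12250 at 0.96, Reg3g at 2.92 and Reg3b at 4.29.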

How the data were processed

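The authors deposited log2 signals of 41345 probe sets on 12 single-colour Affymetrix arrays. The submitters' processing notes name Affymetrix Expression Console 1.3.1 and the method RMA, which corrects background, normalizes the arrays together and summarises probes on the log2 scale. Per the labels' protocols, 50 ng of RNA from fixed tissue were amplified with a kit for degraded RNA. The log2 values were used as deposited, with array medians of 4.20 to 4.43 and SDs of 1.60 to 1.91. The files used here give no detection calls, so whether a dim signal stood above background was not judged. This holds for Nlrp6 in Stat3wt mice, at means of 4.71 in stroma and 4.80 in tumor. Precision is limited by the 3 arrays a group. No source used here gives the genome build of the probes.

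Of 25335 annotated probe sets, 23521 had a single symbol and 1814 had several and were left out. The probe set with the highest mean stood for each of 22180 genes, and genes in the dimmest 25% by mean (cut at 3.65) were dropped. limma 3.58.1 (R 4.3.3) fitted 4 group means to all 12 arrays, with 7 contrasts tested by eBayes and Benjamini-Hochberg adjustment at 0.05 over 16635 genes. The fit was tested on simulated data. Intervals are at 95%. Each sample is from 1 mouse, but no label says whether different numbers are different mice, so p-values measure the spread between these samples, which may be partly technical.

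The members, the 8 pathway lists, the 10 marker lists and the tests were chosen with earlier results of these data known. Of each list the text names at most 4 genes, those with the smallest p in the contrasts of single groups, and any that passed. The genes most like Nlrp6 were taken by Pearson's r, with predicted genes, receptors of smell and small RNAs passed over. A gene among those that ran most against Nlrp6 is not reported here. Alternatives were quantile normalization, median centring, array weights, array spread as a covariate, the mean of a gene's probe sets, no filter, leaving out single arrays or the 2 of widest spread, and blocks for the replicate number. Promoter sequences are RefSeq's on GRCm38.p6.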

Additional observations from a re-analysis of the deposited data

How the results depend on the processing

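Of 543 differences of the 8 tested genes over the settings other than leaving out 1 array, 499 kept their direction and their side of the threshold, 19 newly passed and 25 turned direction, all of them in comparisons that had not passed. Leaving out 1 array gave 672 more, of which 645 were kept, 5 newly passed and 22 turned. The causes were not tested. The number of genes that pass, on the other hand, moved widely, and with 3 arrays a group these counts limit what a missed threshold can say. Median centring, no filter and the mean over probe sets gave 0 new calls among the 8.

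The count of genes past the threshold for Stat3dm minus Stat3wt was, in stroma, 1 with quantile normalization, 45 with array weights and 13 with array spread as a covariate (0 as reported). In tumor it was 303 with weights and 14 with spread (3 as reported), and averaged over both tissues 90 with quantile normalization, 17 with median centring, 430 with weights, 166 with spread and 21 without the 2 widest arrays, Stat3wt tumor 3 and Stat3dm tumor 3 (47 as reported). The interaction had 3 with weights (0 as reported). For stroma minus tumor it was 1004 with weights in Stat3wt. In Stat3dm it was 33 with quantile normalization, 611 with weights and 114 with spread. Averaged over both genotypes it was 168 with centring, 2637 with weights, 264 with spread and 0 without the 2 widest arrays (425 as reported). Leaving out 1 array gave 0 to 2, 0 to 7 and 16 to 69 for the genotype in stroma, in tumor and averaged, 0 to 0 for the interaction, and 0 to 8 in Stat3wt, 0 to 22 in Stat3dm and 0 to 1296 on average for the tissue.

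The labels share the numbers 1 to 3. The correlation of the deviations of same-numbered samples was 0.44, -0.0041 and 0.51 between Stat3wt stroma and tumor, 0.12, 0.16 and 0.30 in Stat3dm, 0.15, -0.04 and 0.11 between the genotypes in stroma and 0.32, 0.15 and 0.69 in tumor. It was 0.19, 0.22 and 0.21 between Stat3dm stroma and Stat3wt tumor and 0.44, 0.07 and 0.42 between Stat3dm tumor and Stat3wt stroma. Every pair was thus over 0.1 for the tissue in Stat3dm and the genotype in tumor but not for the other single comparisons, and no label says what a number shares. With the number as a replicate block, the counts were 28 in stroma, 89 in tumor and 292 averaged for the genotype, and 304 in Stat3wt, 86 in Stat3dm and 2187 averaged for the tissue. With genotype and number as a random block they were 13 for the averaged genotype and 5, 62 and 1648 for the tissue, and as a fixed block 138, 152 and 1876 for the tissue. Under these 3 blocks Casp1 (limma adjusted p = 0.0223, 0.0244 and 0.0265) and Il18 (0.0182, 0.0178 and 0.0133) passed for stroma minus tumor over both genotypes, Gsdmd under the number block and the random block (0.0492 and 0.041), and Il18 in Stat3wt under both fixed blocks (0.0462 and 0.0466).

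With array weights, 8 more calls appeared: Casp1, Il18 and Gsdmd over both genotypes (limma adjusted p = 0.00554, 0.00367 and 0.00688), Casp1, Casp4, Il18 and Gsdmd in Stat3wt (0.0414, 0.0429, 0.0374 and 0.0443), all lower in stroma, and Il18bp higher in Stat3dm over both tissues (0.0273). Pycard passed for the same contrast with spread as a covariate (0.033).

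Turned directions, in the order weights, spread, quantile, centring and without the 2 widest arrays where run, were these. Nlrp3 was -0.21 and -0.0463 for the genotype in tumor (weights, spread), -0.29, -0.52, -0.0275, -0.0556 and -0.18 for the tissue in Stat3wt, and -0.10 for the averaged tissue (spread). Aim2 was -0.0308 for the tissue in Stat3dm (centring) and 0.0068 for the averaged genotype (spread). Pycard was -0.0739 for the interaction and 0.0004 for the tissue in Stat3wt (spread). Casp4 was -0.10 and -0.24 for the genotype in tumor (weights, without the widest arrays) and 0.13, 0.10, 0.0771 and 0.31 for the tissue in Stat3dm (weights, spread, quantile, without the widest arrays). Il18 was -0.0499 for the genotype in stroma (weights). Il18bp was 0.0355, 0.0864 and 0.16 for the tissue in Stat3wt (weights, spread, quantile). Gsdmd was -0.017 and -0.0003 for the genotype in tumor (without the widest arrays, other probe set) and -0.17 for the interaction (quantile). The correlation with Nlrp6 was 0.51 for Nlrp3 and 0.50 for Il18bp under quantile normalization.

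When single arrays were left out, directions turned in these ranges: Nlrp6 -0.16 to 0.04 and Nlrp3 -0.18 to 0.19 for the tissue in Stat3wt, Nlrp3 -0.0396 to 0.46 and Casp4 -0.21 to 0.30 for the genotype in tumor, Aim2 -0.18 to 0.23 and Casp4 -0.20 to 0.31 for the tissue in Stat3dm, Aim2 -0.19 to 0.0229 for the averaged genotype, Il18 -0.0367 to 0.54 for the genotype in stroma, Il18bp -0.0616 to 0.082 for the tissue in Stat3wt, and Pycard -0.11 to 0.35, Casp1 -0.0246 to 0.40 and Gsdmd -0.0932 to 0.27 for the interaction.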
